A study of Homo sapiens with 6 samples.

Results

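The genes of the melanosome, the pigment organelle, were examined in 2 human melanoma cell lines, A375 and Colo800, after infection with a hairpin against the ETS-family transcription factor ETV1. The set was named by gene: TYR, DCT, TYRP1, PMEL, MLANA, GPR143, SLC45A2, OCA2, MYO5A and RAB27A, 10 genes in all. Of these, 9 had a row among the 17468 genes of the expression table, and PMEL was not analysed here. The table identifies them as ENSG00000077498 (TYR), ENSG00000080166 (DCT), ENSG00000107165 (TYRP1), ENSG00000120215 (MLANA), ENSG00000101850 (GPR143), ENSG00000164175 (SLC45A2), ENSG00000104044 (OCA2), ENSG00000197535 (MYO5A) and ENSG00000069974 (RAB27A). Levels are in FPKM, the number of fragments for each kilobase of a transcript after scaling to library size, which allows genes to be compared with each other. Each line was infected with a scrambled hairpin, ETV1-sh1 or ETV1-sh2, giving 6 libraries, 1 per line and hairpin. The series' design text says that infections were made in duplicate and that RNA was taken 4 days later. Pooling of the duplicates into 1 library is possible, but not given in the sources used here. Both lines are established cultures grown with 10% serum, with no host tissue. The sample labels conflict with this design. Their treatment field gives DMSO for ETV1-sh1, 5 nM trametinib (a MEK inhibitor) for ETV1-sh2 and 1 uM vemurafenib (a BRAF inhibitor) for the scrambled libraries, and the treatment protocol has 48 hours of siRNA followed by 8 hours of drug. In those labels each drug goes with 1 hairpin, so drug and hairpin cannot be told apart in these values.

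Melanin is made inside melanosomes. Tyrosinase (TYR) starts the pathway by oxidising tyrosine, DCT (dopachrome tautomerase) converts dopachrome, and TYRP1 works later in the synthesis of eumelanin and stabilises tyrosinase. PMEL forms the fibrils on which melanin is laid down, MLANA helps PMEL to mature, and GPR143 is a receptor of the melanosome membrane that affects melanosome size. SLC45A2 and OCA2 are membrane transporters that keep the inside of the melanosome neutral enough for tyrosinase. MYO5A, a myosin motor, and RAB27A, a small GTPase, carry finished melanosomes along actin through the linker melanophilin (MLPH). In melanocytes the transcription factor MITF drives many of these genes from M-box and E-box sequences in their promoters.

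The promoters are shown because the set is best known as a group of MITF targets and the libraries target an ETS factor. RefSeq windows of 250 bases before each annotated start (GRCh38.p14, which is not the hg19 build of the expression files) were at hand for 8 of the 10 genes, 13 windows in all. There was none for SLC45A2 or PMEL. Both strands were searched for the E-box CATGTG, for the M-box TCATGTG that contains it, for the palindrome CACGTG and for the ETS core CCGGAA. Among 35116 promoter windows of the same length, 9.42% held CATGTG, 2.52% TCATGTG, 6.34% CACGTG and 14.5% CCGGAA. Capitals mark a match to CATGTG, which reads CACATG when it lies on the opposite strand, or to CCGGAA, which then reads TTCCGG. The M-box has 1 more base at the edge of the capitals. The first 3 belong to the melanin enzymes, at chr11:89177625-89177874 on the plus strand, chr9:12693135-12693384 on the plus strand and chr13:94479683-94479932 on the minus strand, the last being the second of 2 annotated DCT starts.
TYR: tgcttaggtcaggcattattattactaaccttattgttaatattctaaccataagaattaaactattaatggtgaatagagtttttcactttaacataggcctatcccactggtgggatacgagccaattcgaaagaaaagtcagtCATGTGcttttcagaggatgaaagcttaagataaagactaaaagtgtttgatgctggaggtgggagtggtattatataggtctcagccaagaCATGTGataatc
TYRP1: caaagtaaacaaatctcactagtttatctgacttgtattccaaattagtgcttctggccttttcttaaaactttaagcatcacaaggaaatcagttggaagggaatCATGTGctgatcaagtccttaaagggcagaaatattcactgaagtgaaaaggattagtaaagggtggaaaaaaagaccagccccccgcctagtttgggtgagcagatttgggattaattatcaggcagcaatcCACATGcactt
DCT: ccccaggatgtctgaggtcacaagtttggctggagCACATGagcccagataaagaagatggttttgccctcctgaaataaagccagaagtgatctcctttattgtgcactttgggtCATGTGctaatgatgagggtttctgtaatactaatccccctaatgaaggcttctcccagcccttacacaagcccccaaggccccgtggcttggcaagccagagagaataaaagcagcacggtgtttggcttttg
TYR and TYRP1 each held 2 matches to CATGTG, 1 of them an M-box, and the DCT window held 2 M-boxes. The next belongs to GPR143, at chrX:9765848-9766097 on the minus strand, and held 2 M-boxes.
GPR143: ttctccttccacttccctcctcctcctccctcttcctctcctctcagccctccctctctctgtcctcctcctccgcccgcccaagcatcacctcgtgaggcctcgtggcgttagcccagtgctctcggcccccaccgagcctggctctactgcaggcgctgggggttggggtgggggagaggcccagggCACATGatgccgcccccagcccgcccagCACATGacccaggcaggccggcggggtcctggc
The next belong to the transport genes, with CCGGAA to be read against the 14.5% of all promoter windows that held it. The windows of MYO5A, at chr15:52529051-52529300 on the minus strand, and of the first of 5 RAB27A starts, at chr15:55319124-55319373 on the minus strand, held no CATGTG and 1 match each to CCGGAA.
MYO5A: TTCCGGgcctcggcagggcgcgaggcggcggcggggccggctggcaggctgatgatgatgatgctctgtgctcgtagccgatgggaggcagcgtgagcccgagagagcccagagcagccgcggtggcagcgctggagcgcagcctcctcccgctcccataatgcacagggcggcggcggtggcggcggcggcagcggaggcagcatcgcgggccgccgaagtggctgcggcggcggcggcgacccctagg
RAB27A: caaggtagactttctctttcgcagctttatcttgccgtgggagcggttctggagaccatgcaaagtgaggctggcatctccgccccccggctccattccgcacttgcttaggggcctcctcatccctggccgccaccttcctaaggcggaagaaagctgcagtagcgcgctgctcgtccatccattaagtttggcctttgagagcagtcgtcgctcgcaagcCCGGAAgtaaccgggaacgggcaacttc
OCA2 held 1 CATGTG and no M-box. The MLANA window, the other DCT start and the other 4 RAB27A starts held none of the 4 motifs. A match is only a run of letters, and binding was not measured.

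The sum of FPKM over all genes ranged from 589256 to 710498 per library, the number of genes at 1 FPKM or more from 10418 to 11013, and no read depth can be read from these values. Ribosomal protein genes made up 16.1% to 19.1% of the sum in A375 and 6.47% to 9.11% in Colo800, so the lines differ in what the rest is scaled against. Mitochondrial genes made up 3.83% to 5.03% in A375 and 6.15% to 9.21% in Colo800, highest with ETV1-sh2 in each line, and their part in the ETV1-sh2 results was not tested beyond the scaling that leaves them out. The target, ETV1, stood at 82.8 FPKM in the A375 scrambled library, at 34.6 under ETV1-sh1 and at 3.46 under ETV1-sh2; the Colo800 libraries read 180.3, 54.6 and 9.80. ETV1-sh2 therefore left 4.18% and 5.43% of the scrambled level, against 41.8% and 30.3% with ETV1-sh1. Of 8 listed markers of melanoma 7 had a row, and they summed to 855 to 1827 FPKM in A375 and 2173 to 4047 in Colo800. Among them SOX10, a neural crest factor, read 353 to 712 FPKM over the libraries and S100B 39.4 to 305, while MLANA was at or under 1.85.

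Colo800 carried most of the pigment genes at higher levels than A375, with the widest gaps for the enzymes DCT and TYR. The sum over the 9 measured genes was 19.3 to 34.5 FPKM in A375 and 147 to 277 in Colo800. For 6 of the 9 (TYR, DCT, TYRP1, MLANA, SLC45A2 and RAB27A) all 3 Colo800 libraries lay above all 3 A375 libraries; 20.2% of the 17468 genes did so. OCA2 was the 1 gene with all Colo800 libraries below all A375 libraries, a pattern of 19.9% of genes. MYO5A and GPR143 overlapped between the lines. These are 2 lines with 1 library per hairpin, so this is a difference between 2 cultures.

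DCT read 0.0603, 0.0657 and 0.0230 FPKM in A375 with the scrambled hairpin, ETV1-sh1 and ETV1-sh2, and 125.3, 70.8 and 82.1 in Colo800. TYR read 0.0271, 0.0758 and 0.0193 in A375, and 34.4, 84.9 and 14.8 in Colo800, in the same order of hairpins. Both enzymes were thus near 0 in every A375 library and among the higher pigment genes in Colo800. TYRP1 was low in both lines, at 0.286, 0.502 and 0.604 FPKM in A375 and 1.44, 1.70 and 1.65 in Colo800, without overlap.

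MLANA read 0.301, 0.373 and 0.481 FPKM in A375 and 1.85, 1.01 and 0.510 in Colo800, so the lowest Colo800 library lay close to the highest of A375. GPR143 read 0.354, 0.236 and 0.807 in A375 and 0.0842, 0.259 and 0.439 in Colo800, overlapping throughout. The transporter SLC45A2 read 1.34, 1.64 and 0.0675 in A375 and 9.57, 12.8 and 3.29 in Colo800, lowest with ETV1-sh2 in each line. The other transporter, OCA2, stayed under 1 FPKM everywhere, with 0.114, 0.160 and 0.0837 in A375 and 0.0219, 0.0205 and 0.0599 in Colo800.

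The transport genes were the pair with a clear level in both lines. MYO5A read 30.2, 18.03 and 10.97 FPKM in A375 and 89.4, 24.6 and 24.5 in Colo800, so the Colo800 knockdown libraries lay below the A375 scrambled library. RAB27A read 1.88, 3.68 and 6.22 in A375 and 15.1, 12.5 and 19.9 in Colo800, with no overlap between lines.

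By median level, A375 ran from MYO5A to RAB27A, SLC45A2, TYRP1, MLANA, GPR143, OCA2, DCT and TYR. The ranges of neighbours overlapped from SLC45A2 through GPR143 and between DCT and TYR, so the order there is not resolved. Colo800 ran from DCT to TYR, MYO5A, RAB27A, SLC45A2, TYRP1, MLANA, GPR143 and OCA2, with overlapping ranges among the top 3, between RAB27A and SLC45A2, and between TYRP1 and MLANA. The enzymes TYR and DCT moved from the bottom of the order in A375 to the top in Colo800.

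**Figure D1:**
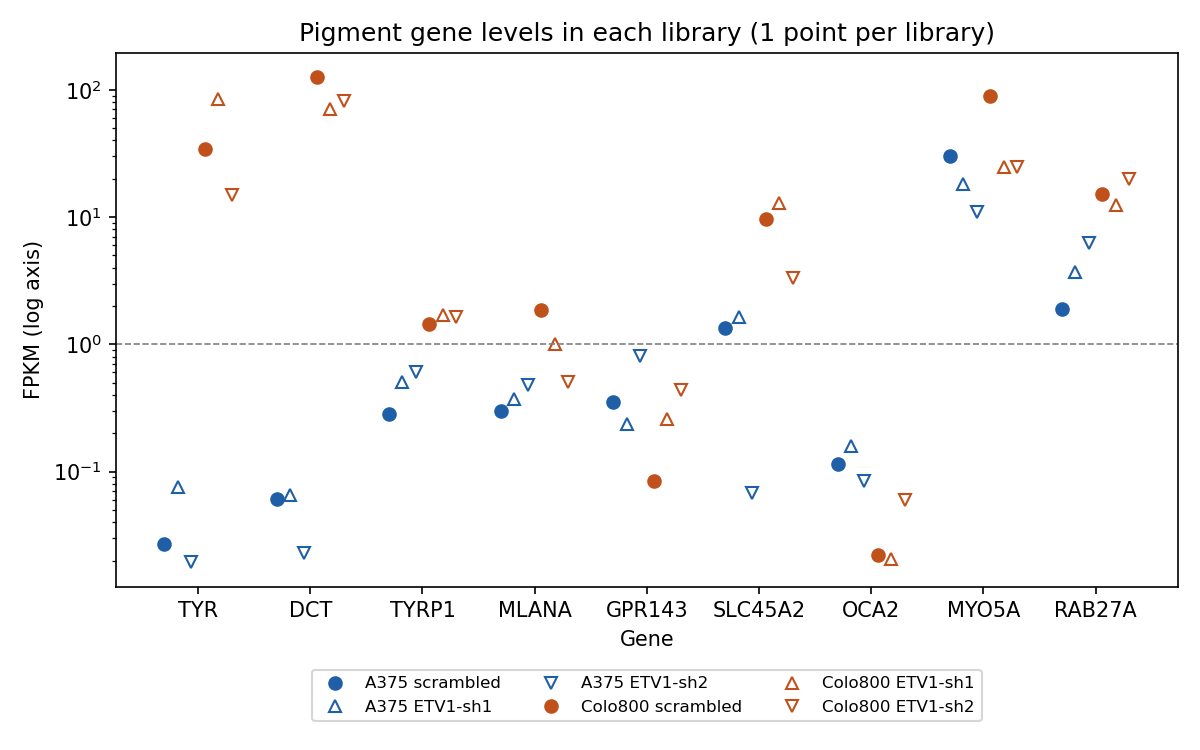
FPKM of the 9 measured pigment genes on a log10 axis in each of the 6 libraries, with 1 point per library, coloured by line and shaped by hairpin; the dashed line marks 1 FPKM. DCT and TYR lie between 0.0193 and 0.0758 FPKM in A375 and between 14.8 and 125.3 in Colo800, whereas the MYO5A points of the lines overlap.

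Tests were made with limma on log2(FPKM + 1), on which changes of low genes are understated, in the 11129 genes with a mean of at least 1 FPKM, with Benjamini-Hochberg adjustment and a threshold of 0.05. MLANA, GPR143 and OCA2 fell under that mean, and DCT, TYR and TYRP1 reached it only through Colo800, so their line difference had to be large and is given as a description with no test. In the fit for Colo800 against A375, with the hairpin as a term, the log2 difference was 6.44 for DCT, 5.13 for TYR and 0.83 for TYRP1. SLC45A2 was 2.19 higher in Colo800 (SE 0.181, adjusted p = 0.00032), RAB27A 1.85 higher (SE 0.233, adjusted p = 0.00123) and MYO5A 1.02 higher (SE 0.223, adjusted p = 0.0094) in that limma fit. Of all genes tested, 31.8% were called higher in Colo800 and 25.3% lower, 3542 against 2811 genes. That split depends on scaling: it was 2805 higher and 3584 lower after upper-quartile scaling, and 2464 and 4030 when ribosomal protein and mitochondrial genes were left out of the scaling. The median of all genes moved from 0.07 to -0.10 and -0.19, and SLC45A2, RAB27A and MYO5A were called higher under each. The lower calls of all genes dropped to 1831 without the A375 scrambled library and to 1855 without that of Colo800. The MYO5A call was lost (limma adjusted p = 0.0858) with no filter on low values.

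The main question of the design is what changed when ETV1 was lowered. Over the 4 libraries with an ETV1 hairpin against the 2 scrambled ones, with the line as a block, none of the 6 tested pigment genes passed the threshold. No gene of the 11129 did so (0% lower, 0% higher), the smallest limma adjusted p being 0.135; at an unadjusted p under 0.05 there were 567 lower and 637 higher genes, MYO5A among the lower. Of the 6, MYO5A was farthest from 0, at -1.43 on the log2 scale (SE 0.288, unadjusted p = 0.00202, limma adjusted p = 0.279), and was lower in 4 of 4 knockdown libraries. The others lay between -0.47 (SLC45A2) and 0.54 (RAB27A), with limma adjusted p from 0.590 to 0.984. TYRP1 was higher in 4 of 4 libraries, but by only 0.12 to 0.32 on log2(FPKM + 1), which understates changes of low genes. On plain FPKM it was 1.76 and 2.12 times scrambled in A375 and 1.18 and 1.14 times in Colo800. The share of all genes with the same direction in 4 of 4 was not taken. Both differences of a line share its scrambled library, so the 4 are not independent. In these bulk cultures fewer cells expressing a gene and less RNA per cell cannot be told apart. Since the labels do not say that the libraries are separate cultures, p-values measure only how far these 6 libraries spread around the fit. That spread may be technical in part. In the pooled fit the gap between the hairpins also counts as spread, so genes that the hairpins move differently get a wide SE. For SLC45A2 the SE was 0.556 there and 0.221 with the hairpins as separate levels. With separate levels, spread is where the lines differ in the effect of a hairpin.

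The hairpins taken singly share the scrambled libraries. With ETV1-sh2, the hairpin that left less ETV1, 2 of the 6 tested pigment genes fell and none rose, where the background was 9.00% of genes lower and 7.73% higher (1002 and 860; 749 and 1281 when ribosomal protein and mitochondrial genes were left out of the scaling, which moved the median of all genes from 0.05 to 0.16). The 2 were MYO5A, by 1.60 on the log2 scale (SE 0.273, limma adjusted p = 0.0188), and SLC45A2, by 1.22 (SE 0.221, limma adjusted p = 0.0209), and both kept their calls under each scaling. DCT, TYR and TYRP1, also among the 6, stayed under 1 FPKM in every A375 library, where log2(FPKM + 1) can show little fall. For these genes the fits over both lines, the pooled one included, could miss a change in Colo800 alone. With ETV1-sh1 the background was 1.51% lower and 0.773% higher, and no pigment gene passed: MYO5A was at -1.27 (SE 0.273, limma adjusted p = 0.0799). Single libraries move these backgrounds: for ETV1-sh2 they fell to 64 lower and 19 higher genes without the A375 scrambled library, 224 and 98 without the Colo800 scrambled library, and 531 and 352 or 516 and 345 without the A375 or Colo800 ETV1-sh1 library, and were 682 and 473 without the A375 ETV1-sh2 library. For ETV1-sh1 (168 and 86) there was at most 1 in either direction without either scrambled library and 0 without either ETV1-sh1 library, against 500 and 329 or 502 and 332 without the A375 or Colo800 ETV1-sh2 library.

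MYO5A was lower with each hairpin in each line. In Colo800 it went from 89.4 FPKM to 24.6 and 24.5, a log2 difference of -1.82 and -1.83. In A375 it went from 30.2 to 18.03 and 10.97, a difference of -0.71 and -1.38. On that scale it was the 1 pigment gene at least 2-fold lower with both hairpins within a line, in Colo800, where 0.908% of genes were so and 0.899% were 2-fold higher; none of the 9 was 2-fold higher with both on the log2(FPKM + 1) scale. On plain FPKM, GPR143 in Colo800 was 3.07 and 5.22 times its scrambled level of 0.0842, a level too low to be tested. In A375 no pigment gene moved 2-fold with both hairpins in either direction (1.63% of genes lower, 0.952% higher). Without the A375 scrambled library the ETV1-sh2 call of MYO5A was lost (limma adjusted p = 0.0520), as it was without the Colo800 scrambled library (0.0903) and with no filter on low values (0.144).

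SLC45A2 separated the hairpins. It was slightly above the scrambled level with ETV1-sh1, 1.64 against 1.34 FPKM in A375 and 12.8 against 9.57 in Colo800, and below it with ETV1-sh2, at 0.0675 and 3.29. The direct comparison of ETV1-sh2 with ETV1-sh1 gave -1.497 on the log2 scale (SE 0.221, limma adjusted p = 0.0128), the 1 pigment gene called there, where 6.91% of genes were lower and 6.82% higher with ETV1-sh2 (769 and 759 genes, and 0 without either ETV1-sh1 library). The size depends on the pseudocount, since the A375 value is near 0: the ETV1-sh2 difference from scrambled was -2.31 with a pseudocount of 0.1 and -0.57 with 5, the latter at a limma adjusted p of 0.0942. Its call against scrambled was also lost without the A375 scrambled (limma adjusted p = 0.123), Colo800 scrambled (0.116) or Colo800 ETV1-sh1 library (0.0528), with that hairpin alone in the fit (0.0518) and with no filter (0.113). The call against ETV1-sh1 was lost without either ETV1-sh1 library (limma adjusted p of 0.0996 in A375, 0.105 in Colo800), with a pseudocount of 5 (0.0565) and with no filter (0.109).

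The melanin enzymes had no common direction. In Colo800, where TYR can be read, it stood at 84.9 FPKM with ETV1-sh1 and 14.8 with ETV1-sh2, on either side of the scrambled 34.4, log2 differences of 1.28 and -1.16. The fitted TYR differences were 0.67 with ETV1-sh1 (SE 0.508, limma adjusted p = 0.523) and -0.59 with ETV1-sh2 (SE 0.508, limma adjusted p = 0.441), and ETV1-sh2 lay at -1.26 relative to ETV1-sh1 (limma adjusted p = 0.142). Without the A375 ETV1-sh2 library, which leaves Colo800 as the only source for that hairpin, TYR passed at -1.47 against scrambled (limma adjusted p = 0.0395) and -2.14 against ETV1-sh1 (0.00909). DCT was lower with both hairpins in Colo800, by 0.81 and 0.60, while in A375 it stayed under 0.1 FPKM, and the fitted differences did not pass (limma adjusted p of 0.427 and 0.372).

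RAB27A, the partner of MYO5A in transport, had no common direction over the 4 knockdown libraries. In A375 it was above scrambled with both hairpins, by 0.70 and 1.33, and in Colo800 at -0.26 with ETV1-sh1 and 0.38 with ETV1-sh2. Its ETV1-sh2 estimate was 0.85 (SE 0.285, limma adjusted p = 0.0879). In the GENCODE annotation each of the 9 measured genes but DCT overlaps another: RAB27A overlaps PIGB and PIGBOS1, TYRP1 LURAP1L-AS1, MLANA KIAA2026 and GPR143 TBL1X, while MYO5A, SLC45A2, TYR and OCA2 overlap pseudogenes on the opposite strand (EEF1B2P1, AC139783.2, CBX3P7 and RPL5P32), OCA2 also an antisense gene. Reads of such pairs may not be separable, strandedness being not given in the sources used here.

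**Figure D2:**
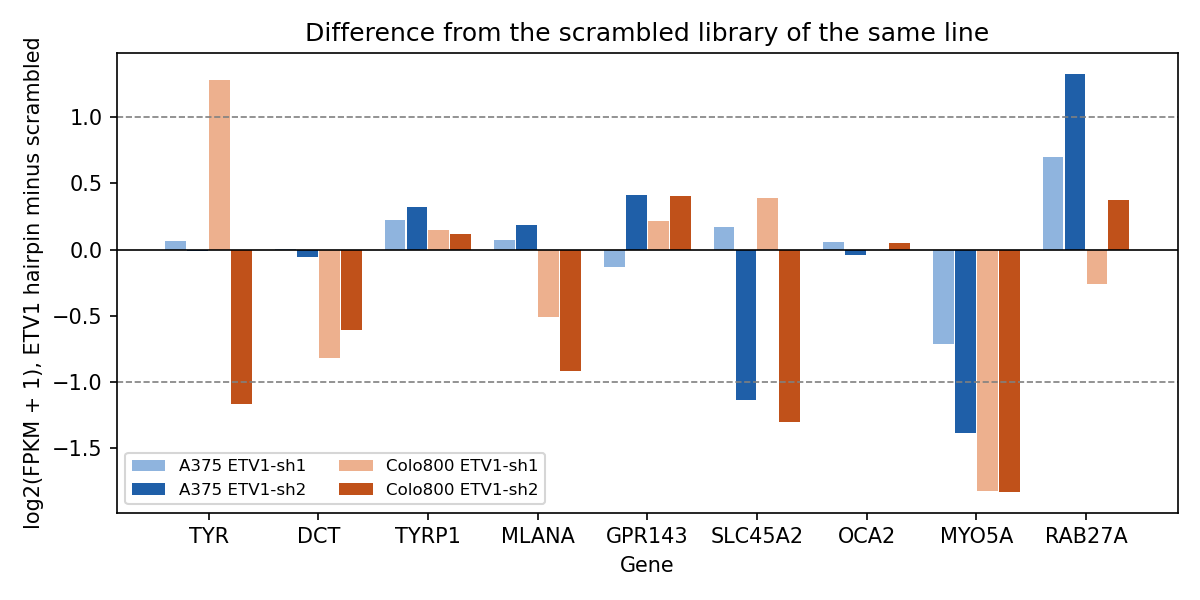
Log2 difference from the scrambled library of the same line, on log2(FPKM + 1), for each pigment gene, with 1 bar per line and ETV1 hairpin, dashed lines at a 2-fold difference and no replicates behind a bar. MYO5A lies below 0 in all 4 bars, from -0.71 to -1.83, and SLC45A2 lies above 0 with ETV1-sh1 and below it with ETV1-sh2.

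Whether the lines responded differently was tested as the difference between lines of the ETV1 hairpin effect. None of the 6 pigment genes passed, with estimates from -0.96 (RAB27A) to 0.03 (TYR) and limma adjusted p of 1.00 for each. None of the 11129 genes tested passed (0% lower, 0% higher), and 24 lower and 42 higher genes had an unadjusted p under 0.05; with no filter, over all 17468 genes, 1 lower and 1 higher gene passed. Such a fit has 2 residual degrees of freedom, so that the intervals are wide. The test takes the mean of the hairpins in each line, so opposite moves cancel, as those of SLC45A2 in both lines and of TYR in Colo800. The gap between the hairpins counts as spread, with an SE of 1.39 for TYR and 1.23 for SLC45A2. DCT and TYR were near 0 in A375, where a fall could hardly be seen. MLANA, which was too low for the main fits, was higher with both hairpins in A375 (0.08 and 0.19) and lower with both in Colo800 (-0.51 and -0.92).

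**Figure D3:**
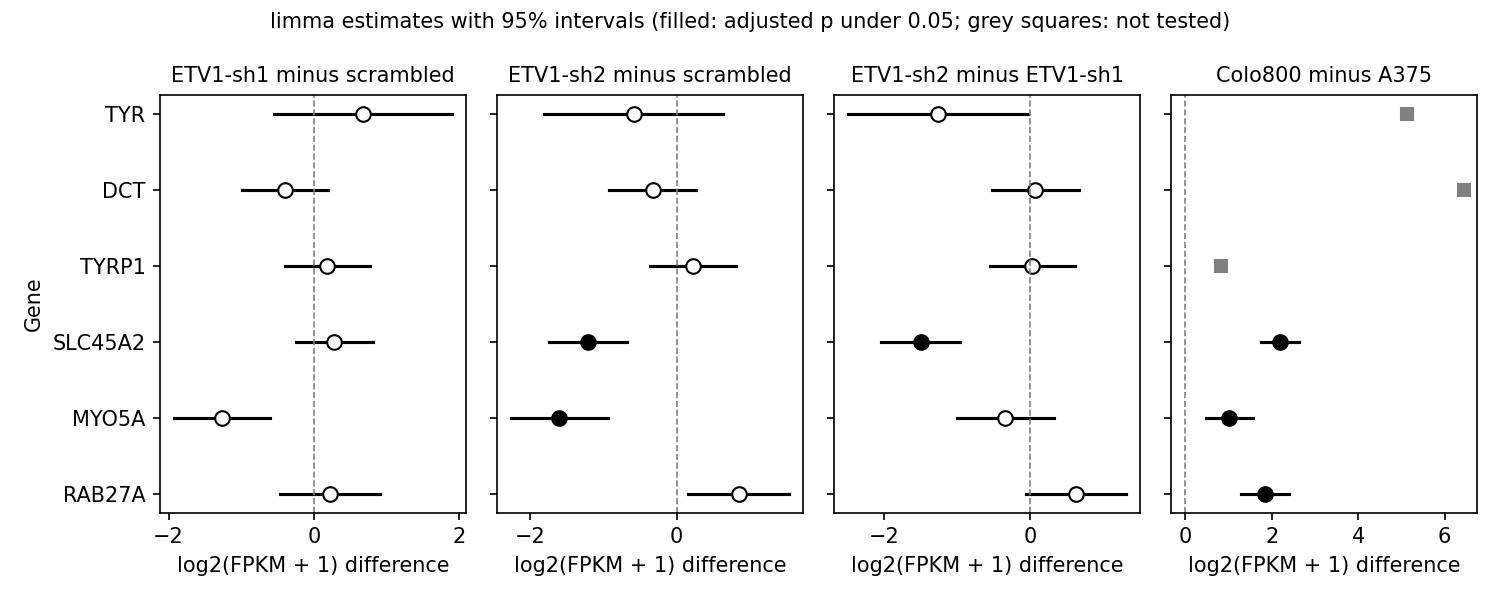
Fitted log2 differences with 95% intervals from limma for the 6 tested pigment genes (rows), with 1 panel each for ETV1-sh1 against scrambled, ETV1-sh2 against scrambled, the hairpins against each other and Colo800 against A375; filled points passed the adjusted threshold of 0.05. MYO5A and SLC45A2 passed for ETV1-sh2 against scrambled, SLC45A2 between the hairpins, and SLC45A2, MYO5A and RAB27A for Colo800 against A375, where DCT, TYR and TYRP1 are grey squares with no interval because only Colo800 brought them past the minimum level.

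The other genes of the pigment cell were taken as lists. In the pooled knockdown comparison and in the test between lines no gene of any list passed. With ETV1-sh2, 9.00% of all genes were lower and 7.73% higher, and with ETV1-sh1 1.51% and 0.773%, against which the counts are to be read. Melanocyte transcription factors had 2 of 12 tested members lower with ETV1-sh2 and none higher: LEF1, a Wnt-pathway factor, by 2.17, and TFAP2A, a neural crest factor, by 1.40. The median of that list was -0.32, against 0.05 over all genes. MITF itself read 12.6, 8.61 and 10.5 FPKM in A375 and 116, 91.5 and 38.4 in Colo800, and its ETV1-sh2 difference of -0.91 did not pass (limma adjusted p = 0.130). Of the other genes that MITF is known to regulate, 4 of 21 fell with ETV1-sh2 and none rose (median -0.30), among them CDK2, a cell cycle kinase, by 1.96, ERBB3, a receptor kinase, by 1.45 and S100B by 1.06. With ETV1-sh1, 3 of the 21 fell, among them S100B by 1.70 and QPCT by 1.68. The hairpins disagreed on CDK2, at 0.45 with ETV1-sh1, and on QPCT, at 0.61 with ETV1-sh2. ETV1-sh2 lay at -2.41 for CDK2 and 2.29 for QPCT relative to ETV1-sh1 (limma adjusted p of 0.00535 and 0.00553). CDK2 overlaps PMEL on the opposite strand, so its value may hold PMEL reads.

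Among the partners in melanosome transport and transfer, 3 of 17 fell with ETV1-sh2 and 1 rose, with a median of 0.12. The unconventional myosin MYO10 fell by 1.60, the kinesin heavy chain KIF5B by 1.16 and the synaptotagmin-like protein SYTL5 by 1.07, while RILP, a Rab effector, was 1.48 higher. MLPH, which links RAB27A to MYO5A, read 3.20, 11.6 and 2.50 FPKM in A375 and 43.3, 55.0 and 18.7 in Colo800. Like SLC45A2, it was higher than scrambled with ETV1-sh1 and lower with ETV1-sh2 in each line, and ETV1-sh2 lay at -1.68 relative to ETV1-sh1 on the log2 scale (SE 0.308, limma adjusted p = 0.0221). MYO10, KIF5B and SYTL5 were called lower in that comparison as well, 4 of 17 in all, where 6.91% of all genes were lower and 6.82% higher.

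Genes that process PMEL gave 1 lower and 2 higher of 10 with ETV1-sh2 (median -0.15). FURIN, a proprotein convertase, was 1.98 higher with ETV1-sh2 and 1.93 higher with ETV1-sh1, going from 30.4 to 97.4 and 106.5 FPKM in A375 and from 37.6 to 177 and 173 in Colo800. PSEN2, a gamma-secretase subunit, was 0.86 higher, and BACE2, which cleaves PMEL, fell by 0.64. Among melanosome ion transport and pH genes, 2 of 9 rose with ETV1-sh2 and none fell (median -0.14): the amino acid transporter SLC36A1 by 1.55 and the copper pump ATP7B by 1.10. Sorting complexes (BLOC, AP-3 and HOPS) gave 1 of 26 higher, VPS33A by 0.85 (median 0.15), and with ETV1-sh1 1 lower, AP3S1 by 1.46. Melanocortin, endothelin and KIT signalling gave 1 lower and 1 higher of 11 (median 0.13), PRKACA at -1.57, the catalytic subunit of protein kinase A, and ADCY9, an adenylyl cyclase, at 0.81. Melanin chemistry partners gave MIF at -0.94 and GSTM2 at 1.48, 1 lower and 1 higher of 10 (median 0.02).

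Between the lines 31.8% of all genes were called higher in Colo800 and 25.3% lower. That split turned to 2464 higher and 4030 lower when ribosomal protein and mitochondrial genes were left out of the scaling. The list counts were not recomputed under it. A list gene that reached the minimum mean through Colo800 alone or A375 alone had to come out higher in that line. Such genes, SLC24A5 among them, are in the counts and their number was not taken, so the counts are a description with no test. Of the other MITF-regulated genes 16 of 21 were higher and 2 lower, with a median of 1.76 against 0.07 over all genes; GPNMB, a PMEL relative, was 3.54 higher. Transport partners had 11 of 17 higher and 2 lower (median 0.90), with MLPH 2.68 higher. PMEL-processing genes had 7 of 10 higher and none lower (median 0.86). Transcription factors were split, 7 higher and 4 lower of 12 (median 0.48), with IRF4 at 2.88, MITF at 2.72 and TFAP2B at -3.03. Ion transport and pH genes had 3 higher and 3 lower of 9 (median 0.19); SLC24A5, a melanosomal exchanger, was 4.40 higher, at 0.0452 to 0.0852 FPKM in A375 and 14.7 to 38.6 in Colo800, near 0 in A375 as DCT and TYR were. The sorting complexes had 11 higher and 7 lower of 26 (median 0.25), signalling 6 and 3 of 11 (median 0.48), and melanin chemistry 5 and 1 of 10 (median 0.46).

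**Figure D4:**
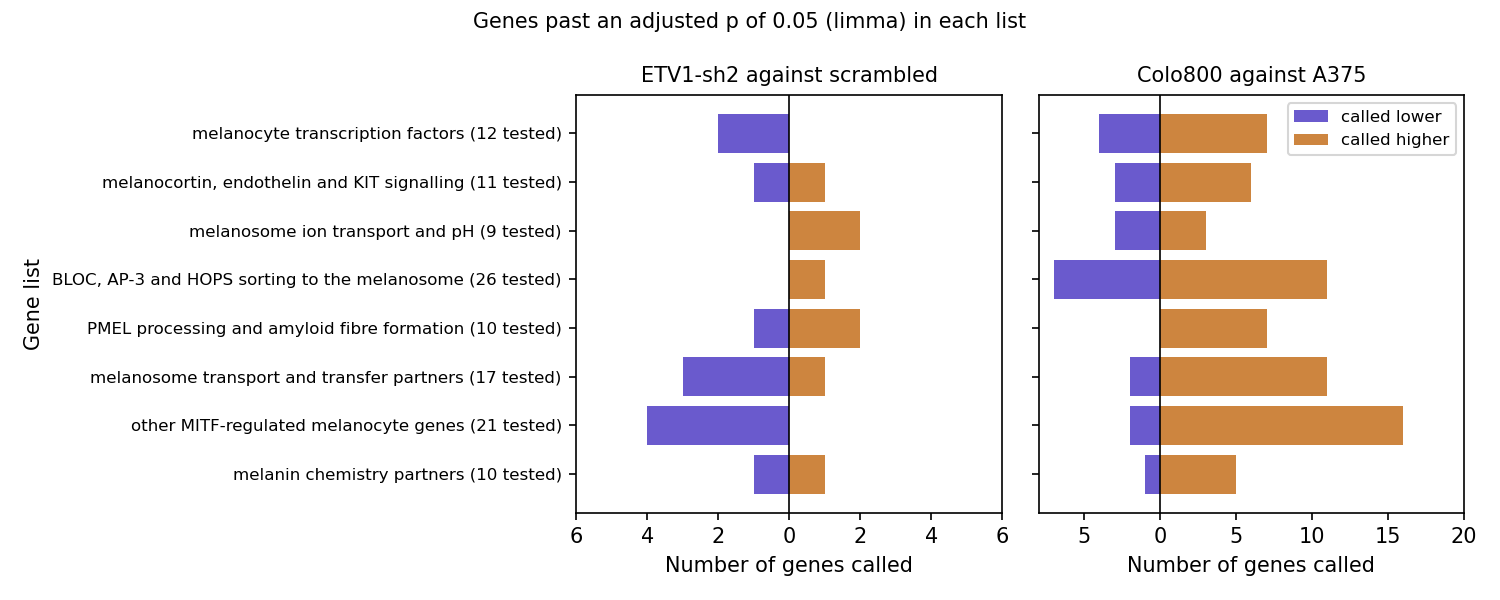
Counts of genes called lower (bars to the left) and higher (bars to the right) by limma in each list, for ETV1-sh2 against scrambled and for Colo800 against A375, with the number tested beside each name. With ETV1-sh2 no list has more than 4 genes called lower, whereas between lines 16 of the 21 other MITF-regulated genes are higher in Colo800. The counts between lines are a description, since they include genes that reached the minimum mean through Colo800 alone or A375 alone.

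Markers of other cell types were measured beside these results. The summed level of 9 fibroblast markers was 15.8 to 38.0 FPKM in A375 and 54.5 to 80.6 in Colo800, and 3 of the 6 tested rose with ETV1-sh2, where 7.73% of all genes did: COL1A1 by 1.88, PDGFRB by 1.25 and LUM by 0.92. Their sum was highest with ETV1-sh2 in each line, the library in which SLC45A2 was lowest. Between the lines 3 of the 6 were higher in Colo800 and 1 lower (31.8% and 25.3% of all genes were). Of the 6 tested melanoma markers, 2 fell with ETV1-sh2, S100B among them, and none rose, where 9.00% of all genes fell. All 6 estimates were below 0, with a median of -0.98 against 0.05 over all genes. Keratinocyte markers summed to 30.7 to 36.2 in A375 and 8.50 to 16.9 in Colo800, with all 3 tested lower in Colo800 (25.3% of all genes were). Epithelial markers summed to 18.0 to 26.5 and 3.07 to 5.01, again with 3 of 3 lower. In each Colo800 library 6 of the 8 keratinocyte and 7 or 8 of the 9 epithelial markers were under 1 FPKM, against 5 and 6 in A375. A marker that reached the minimum mean through A375 alone or Colo800 alone had to come out higher in that line, so the marker counts between lines are a description with no test. The leukocyte sum of 100.7 to 329 in A375 and 78.0 to 140 in Colo800 was mostly CD68, a lysosomal gene. Of the 2 tested leukocyte markers LYZ was called lower in Colo800, at -3.58, and CD68 was not called. The defining PTPRC was at most 0.121 FPKM and TYROBP was listed at 0 throughout. Endothelial markers summed to 3.34 to 11.4 and 1.42 to 2.70, with 1 of the 2 tested called lower in Colo800. The part of these markers in the pigment gene differences was not tested.

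The 5 genes nearest to the median profile of the 6 tested pigment genes over the 6 libraries, of 8897 genes with a mean of at least 5 FPKM, were NRM, ECM1, TIMP2, FAM129A and PPP1R2. Likeness was the root mean square distance of centred log2 values, 0.125 for NRM, 0.163 for ECM1, 0.184 for TIMP2, 0.226 for FAM129A and 0.233 for PPP1R2. ECM1, an extracellular matrix protein, read 68.1, 90.1 and 41.4 FPKM in A375 and 484, 406 and 303 in Colo800. TIMP2, a metalloproteinase inhibitor, read 34.5, 39.9 and 30.6 in A375 and 206, 171 and 111 in Colo800. In both genes all 3 Colo800 libraries lay above all 3 A375 libraries. The median profile by which they were picked does the same, so this follows from the choice.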

How the data were processed

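RNA sequencing of 6 libraries, 1 per line and hairpin, was analysed from the deposited FPKM table. The authors made the FPKM values with STAR 2.4, Cufflinks 2.2.1 and Cuffnorm on hg19, per the submitters' processing notes; the annotation, strandedness and scaling method were not given in the sources used here. FPKM hold no depth, so no counting error could be given, and exact 0 is described as listed at 0. All columns of values were mapped to samples by their names.

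Values were taken as log2(FPKM + 1) in the 11129 of 17468 genes with a mean of at least 1 FPKM and tested with limma 3.58.1 in R 4.3.3 (lmFit, eBayes with trend), adjusted by Benjamini-Hochberg over all of them. The pooled comparison used the line as a block (3 residual degrees of freedom). The others used the line and 3 hairpin levels, or a mean per line and knockdown state, with 2 residual degrees of freedom. The ETV1-sh2 estimate was checked on simulated data with the same spread for all genes and the same hairpin effect in both lines. That does not show how the tests perform on these data. Within a line there is 1 library per hairpin and no test.

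The pigment genes and the 14 other lists (190 of 197 genes found) were chosen with earlier results of these data known. All pigment genes are named; of each list, genes past the threshold, at most 6 per list and test by size of change, otherwise the 2 highest in level; some are given in the text by count only, and 1 is not reported here. Alternatives were the pseudocount, the filter, the scaling, fewer libraries and 1 hairpin alone. Promoters are from RefSeq on GRCh38.p14, matched by symbol.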

Additional observations from a re-analysis of the deposited data

Results flagged for a closer look

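MLANA, which takes part in PMEL maturation, moved in opposite directions in the lines: both ETV1 hairpins were above scrambled in A375 (0.301 FPKM to 0.373 and 0.481) and both below it in Colo800 (1.85 FPKM to 1.01 and 0.510). MLANA was flagged by this pattern of signs, and the share of all genes that show it was not taken. The difference between lines of the mean log2(FPKM + 1) change was -0.84. It was not tested in the main fit, where MLANA is under the minimum level. In the limma fit without that minimum its unadjusted p was 0.0725 and its adjusted p 1.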

How the results depend on the processing

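With 1 library per line and hairpin, 2 or 3 residual degrees of freedom limit every test, and leaving out a library leaves 1 (2 in the pooled fit), with a lone library assumed to vary like the others. The 36 fitted values of the pigment genes had 456 alternative values, of which 417 kept direction and side of the threshold, 18 lost and 5 gained a call, and 16 changed sign, the cause of which was not tested. The labels give no replicate numbers to pair, and the line is a term of every fit, so hairpins are compared within lines. The test between lines could not be fitted without either scrambled library.

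Count of pigment genes lower with ETV1-sh2 (2 as reported) was 1 with a pseudocount of 5, 1 with a minimum mean of 5 FPKM, 1 with that hairpin alone, 0 with no filter, where limma called no gene of the table for either hairpin, and 0 to 3 leaving out a library. For ETV1-sh2 against ETV1-sh1 (1 as reported) it was 0 with a pseudocount of 5, with a minimum of 5 FPKM and with no filter, and 0 to 2 leaving out a library. For ETV1-sh1 (0 as reported) it was 1, MYO5A, with that hairpin alone and 0 to 1 leaving out a library (without either ETV1-sh2 library). At 1.5-fold with both hairpins, A375 had 1 lower and 1 higher pigment gene and Colo800 2 lower. The share of all genes at 1.5-fold was not taken, so these counts have nothing to be read against.

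Signs changed in these ranges over libraries left out: TYR from -0.48 to 0.56 in the pooled comparison, -0.22 to 1.57 with ETV1-sh1, -1.47 to 0.29 with ETV1-sh2 and -1.19 to 1.25 between lines; RAB27A from -0.26 to 0.70 with ETV1-sh1; DCT from -0.67 to 0.016 with ETV1-sh2; for ETV1-sh2 against ETV1-sh1, DCT from -0.20 to 0.35, MYO5A from -0.78 to 0.10 and TYRP1 from -0.047 to 0.11; SLC45A2 from -0.82 to 0.87 between lines. With a pseudocount of 0.1, DCT was -0.11 for ETV1-sh2 against ETV1-sh1 and TYR -0.14 between lines; with 5, SLC45A2 was -0.13 between lines. None of these was a call in the reported fits.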
